A study of Mus musculus with 6 samples.

Results

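The 10 genes described here encode enzymes that lengthen fatty acids or put double bonds into them: the desaturases Scd1, Scd2, Fads1 and Fads2 and the elongases Elovl1, Elovl2, Elovl4, Elovl5, Elovl6 and Elovl7. They are a list of named members of the Scd, Elovl and Fads families, drawn up with earlier results of these data known; Scd3, Elovl3, Fads3 and Fads6 of the same families, which are dim or under the filter, are given apart as relatives. Each gene was read from its probe set (a group of array probes for a transcript) with the highest mean over all arrays. They are 10 of 18193 genes with a probe set, have 28 probe sets in all, and all 10 were among the 10531 genes bright enough to test, which the choice of members may have favoured. RNA came from mouse neural stem cells in which green fluorescent protein (GFP) reports Spot14, the product of the thyroid hormone responsive gene Thrsp, and was measured on Affymetrix arrays in GFP positive cells (3 arrays) and GFP negative cells (3 arrays). The submitters describe the arrays of a group as biological replicates; the animals' strain, age and sex, the culture of the cells, the reporter's construction and the way the groups were parted are not given in the sources used here. GFP negative cells were not without Thrsp RNA: its brightest probe set read 14.21 ± 0.10 in GFP positive and 13.56 ± 0.15 in GFP negative cells (log2, SD, n = 3 each).

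Fatty acid synthase releases palmitate, a saturated chain, and the enzymes described here turn it and dietary fatty acids into the longer and less saturated chains of membrane lipids. Each round of elongation in the endoplasmic reticulum joins malonyl-CoA to the chain through an ELOVL enzyme, which sets the chain length, and the desaturases draw electrons from cytochrome b5. In the brain these steps supply the oleate of membranes and myelin, the polyunsaturated arachidonate and docosahexaenoate of phospholipids, and the very long chains of sphingolipids.

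None of the 10 genes passed the test between the groups (limma, Benjamini-Hochberg adjusted p under 0.05 over all 10531 genes; 2.35% of all genes were called higher and 2.11% lower). A difference here is the log2 mean of GFP positive minus that of GFP negative arrays, and the largest were those of Elovl6 (−0.78, 1.71-fold lower), Elovl2 (−0.71, 1.63-fold lower), Elovl4 (−0.61, 1.53-fold lower) and Fads2 (0.51, 1.42-fold higher). These 4 were also the genes at an unadjusted limma p under 0.05, 1 higher and 3 lower, where 9.92% of all genes were higher and 8.28% lower. For 5 genes the arrays of the groups did not overlap, Scd2 and Fads2 higher in GFP positive cells and Elovl2, Elovl4 and Elovl6 lower; 13.8% of all genes were higher and 11.5% lower without overlap. The median of the 10 differences was 0.10, against 0.005 over all genes tested, and the median of their sizes was 0.35 against 0.26. An exact 2-sided permutation test of 3 against 3 arrays cannot give a p under 0.1. Any gene whose groups do not overlap gets that value by construction, so it adds nothing for these 5 genes.

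**Figure D1:**
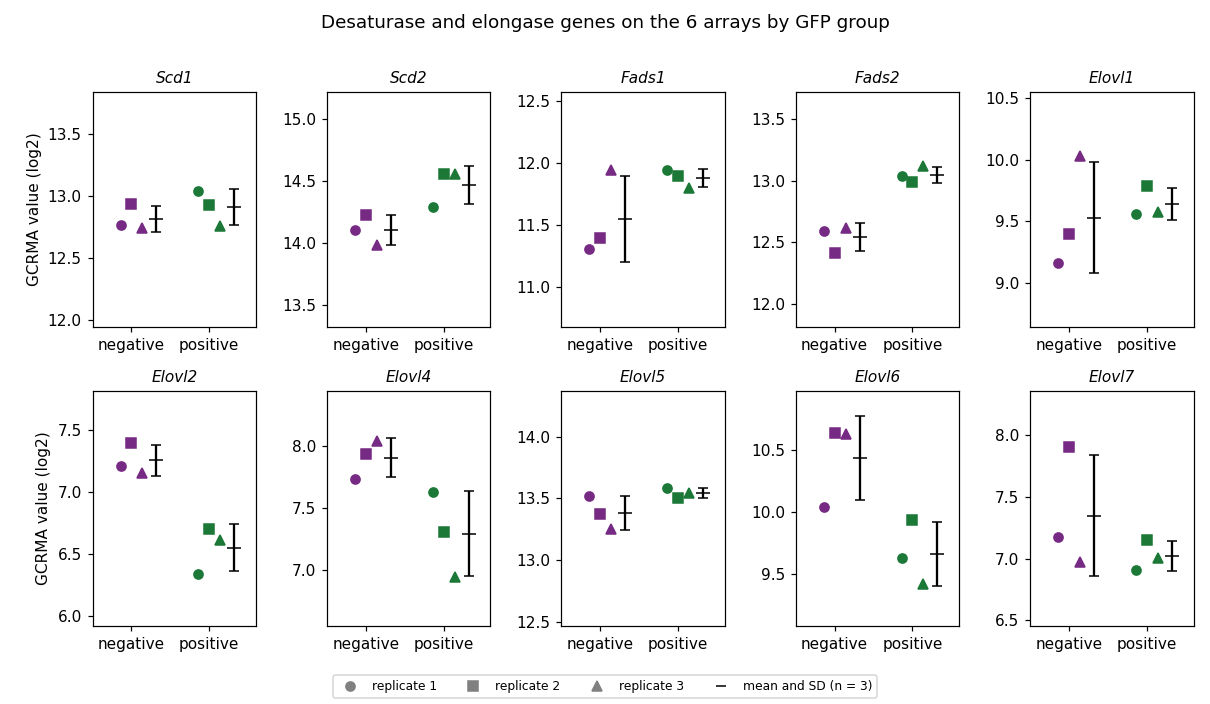
Deposited log2 values of the 10 genes on each array, by GFP group, with the mean and SD of the 3 arrays beside the points; every panel spans the same log2 range, so that distances can be compared between panels but levels cannot. Fads2 and Scd2 lie higher, and Elovl2, Elovl4 and Elovl6 lower, on all GFP positive arrays than on any GFP negative array.

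The normalized arrays had a median log2 value of 3.55 to 3.66. The normalization equalises their distributions, so these medians cannot show whether overall signal differed before it. GFP negative replicate 3 correlated least with the other arrays of its group (r at most 0.954 across genes, against 0.982 between the other GFP negative arrays and 0.985 or more among GFP positive arrays). The 3′ probe sets of control transcripts exceeded the 5′ ones most on GFP negative replicate 2 (by 2.33 log2 units for Gapdh, against 1.14 to 1.65 elsewhere), a measure of RNA integrity. The neural stem cell label was checked against 10 markers, of which 9 were above the filter. Sox2, Nes, Slc1a3, Vim and Fabp7 had means above log2 11 in both groups, while Hes5 was dim (5.05 and 4.52) and Prom1 lay near background. Of the 9 differences 7 were positive and 2 negative, among the latter that of Nes (−0.49, groups overlapping, limma adjusted p = 0.364). Of other cell types, 6 of 7 oligodendrocyte, 7 of 8 microglia and 6 of 7 endothelial markers on the array lay under the filter, among them Mbp, Aif1 and Pecam1. So did 4 of 6 pericyte and 3 of 8 neuroblast markers, among them Pdgfrb and Dcx. Others were present: the oligodendrocyte lineage genes Olig1, Olig2 and Cnp had means of 12.36 to 12.91 in both groups, and 4 of 6 oligodendrocyte progenitor and 4 of 6 ependymal markers were above the filter, while Sox10 lay near background. Of the tested markers of dividing cells 12 of 12 fell and of those of astrocytes 6 of 11 rose, with median differences of −1.89 and 1.204. Of the others, 2 of 9 neural stem cell markers rose (Gfap, also an astrocyte marker, and Nr2e1), and 1 of 5 neuroblast (Elavl4) and 1 of 2 pericyte markers (Acta2) fell; each of these counts was 0 when any GFP positive array was left out, and the neuroblast call was also lost without GFP negative replicate 1 or 2 and the pericyte call without GFP negative replicate 2. The neural stem cell count was 1 without GFP negative replicate 1 or 2. None of 4 oligodendrocyte progenitor, 4 ependymal, 1 oligodendrocyte, 1 microglia and 1 endothelial markers passed. The mean level of the dividing cell markers was 5.64 to 6.49 on GFP positive and 7.64 to 8.39 on GFP negative arrays. For the astrocyte markers it was 11.26 to 11.43 and 9.86 to 10.21. In these bulk samples fewer cells of a type and less RNA per cell cannot be told apart, and the part of either marker group in the differences below was not tested. Dividing cell calls were 0 without GFP positive replicate 1 or 3, 1 without GFP negative replicate 2 and 6 without GFP positive replicate 2, and astrocyte calls were 0 when any GFP positive array was left out and 3 without GFP negative replicate 2.

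Scd1 and Scd2 are stearoyl-CoA desaturases, which place the first double bond into saturated chains and so make oleate and palmitoleate; Scd2 is the form best known from the brain. Scd1 read 13.04, 12.92 and 12.75 on GFP positive replicates 1 to 3 and 12.77, 12.93 and 12.74 on the GFP negative ones. These values interleave, and the difference of 0.09 had a 95% limma interval of −0.31 to 0.50 (limma adjusted p = 0.842). Its other probe set was dim (5.14 ± 0.12 against 5.39 ± 0.25, SD, n = 3 each) and had the opposite sign, −0.25. Scd2 read 14.29, 14.55 and 14.56 in GFP positive cells and 14.10, 14.22 and 13.98 in GFP negative cells. The groups were parted by only 0.07, between GFP positive replicate 1 and GFP negative replicate 2. The difference was 0.36 (SE 0.18, 95% interval −0.05 to 0.78), or 1.29-fold, and did not pass (limma adjusted p = 0.342). The other probe sets of Scd2 differed by 0.70 and 0.39 in the same direction, but their groups overlapped. On both, GFP negative replicate 2 was the lowest array (11.51 and 8.87), the array with the largest 3′ excess, and the part of RNA integrity in these values was not tested. Whether Scd1 and Scd2 changed unequally was tested on their difference within each array: it was −1.56 ± 0.29 in GFP positive and −1.29 ± 0.05 in GFP negative cells (SD, n = 3 each), a shift of −0.27 (95% interval −0.73 to 0.20; exact 2-sided permutation p = 0.3, adjusted p = 0.4 over 3 pairs).

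Fads1 and Fads2 are the front-end desaturases of polyunsaturated fatty acid synthesis; Fads2 carries out the entry step on linoleate and alpha-linolenate, and Fads1 acts after an elongation. Fads2 read 13.03, 12.99 and 13.12 in GFP positive cells and 12.59, 12.41 and 12.62 in GFP negative cells. Every GFP positive array lay above every GFP negative array, with a gap of 0.37. The difference of 0.51 (SE 0.16, 95% interval 0.12 to 0.89) corresponds to 1.42-fold and did not pass after adjustment (exact 2-sided permutation p = 0.1; limma adjusted p = 0.152). Both other probe sets also separated the groups: 1 read 10.26 ± 0.15 against 9.10 ± 0.38, a difference of 1.16, and the other 9.64 ± 0.13 against 8.90 ± 0.31, a difference of 0.73 (SD, n = 3 each). In a fit of all 18742 bright probe sets, where 1.30% were called higher and 1.07% lower, the former came nearest to the threshold among Fads2 probe sets (limma adjusted p = 0.0598). That probe set carries a suffix for possible cross-hybridisation. Fads2 passed with array weights (0.51, limma adjusted p = 0.0408). That fit called 15.7% of all genes, against 4.46% without weights. The weights give GFP positive replicate 2 a value of 8.35, GFP negative replicate 3 one of 0.152 and the other arrays 0.762 to 1.22. So 1 GFP positive array dominates that fit. Over 17 alternatives the limma adjusted p of Fads2 lay between 0.0408 and 0.477.

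Fads1 read 11.95, 11.89 and 11.80 in GFP positive cells. In GFP negative cells it read 11.30 and 11.39 on replicates 1 and 2, and 11.95 on replicate 3. So only GFP negative replicate 3 overlapped the GFP positive arrays, and the difference of 0.33 (95% interval −0.18 to 0.84) did not pass (limma adjusted p = 0.506). Without GFP negative replicate 3 it was 0.53 (limma adjusted p = 0.0638). A dim probe set of Fads1 had the opposite sign (−0.51), with GFP negative replicate 2 at 6.997 against 4.85 to 5.68 on the other arrays. The difference of Fads1 and Fads2 within arrays shifted by −0.17 between the groups (95% interval −0.71 to 0.37; exact 2-sided permutation p = 0.4, adjusted p = 0.4 over 3 pairs).

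Among the family relatives, Fads6, an orphan member of the desaturase family, was dim and differed by 0.93 (4.98 ± 0.29 against 4.05 ± 0.20, SD, n = 3; limma adjusted p = 0.0603). Degs1, which desaturates dihydroceramide, differed by 0.37 (limma adjusted p = 0.338). Both separated the groups. Scd3, Elovl3 and Degs2 lay near background on all arrays, and Fads3 did not reach the filter (3.97 ± 0.28 against 3.07 ± 0.86). Scd4 was not analysed here.

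The bases before the starts of Fads2, Elovl2, Elovl4 and Elovl6 are shown because these genes had the 4 largest differences and may be compared in the motif letters they hold. They are the 250 bases before a gene start in RefSeq, assembly GRCm38.p6, 5′ to 3′ on the gene's strand: Fads2 at chr19:10101504-10101753 (minus strand), Elovl2 at chr13:41220404-41220653 (minus), Elovl4 at chr9:83806306-83806555 (minus) and Elovl6 at chr3:129532136-129532385 (plus). Capitals mark the GC box GGGCGG on either strand, the letters known from Sp1-type factors.
Fads2: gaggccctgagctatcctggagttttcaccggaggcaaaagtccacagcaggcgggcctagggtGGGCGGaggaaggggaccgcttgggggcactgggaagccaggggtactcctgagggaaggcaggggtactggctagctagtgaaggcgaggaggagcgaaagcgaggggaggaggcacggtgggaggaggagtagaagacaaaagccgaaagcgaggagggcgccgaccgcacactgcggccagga
Elovl2: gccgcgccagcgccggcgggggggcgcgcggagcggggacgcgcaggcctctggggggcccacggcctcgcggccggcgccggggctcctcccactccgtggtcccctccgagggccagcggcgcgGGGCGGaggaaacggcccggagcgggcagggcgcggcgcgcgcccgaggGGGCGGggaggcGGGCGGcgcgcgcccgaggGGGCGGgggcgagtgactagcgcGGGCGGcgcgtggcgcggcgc
Elovl4: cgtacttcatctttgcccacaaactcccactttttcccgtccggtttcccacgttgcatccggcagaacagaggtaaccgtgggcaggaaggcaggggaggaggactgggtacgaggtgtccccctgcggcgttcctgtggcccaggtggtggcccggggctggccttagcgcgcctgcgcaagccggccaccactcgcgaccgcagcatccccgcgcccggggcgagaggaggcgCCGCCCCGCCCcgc
Elovl6: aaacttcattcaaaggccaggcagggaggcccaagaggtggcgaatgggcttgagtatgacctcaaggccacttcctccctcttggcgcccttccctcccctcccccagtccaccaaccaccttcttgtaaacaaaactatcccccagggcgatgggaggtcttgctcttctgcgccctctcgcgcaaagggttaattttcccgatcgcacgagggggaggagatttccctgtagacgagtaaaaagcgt
The promoter sequences used here held windows for 7 of the 10 genes, 9 windows in all. Each ran from 250 bases before to 50 after a start. Scd1, Scd2 and Fads1 had no window there and were not searched, so the motif counts do not cover them. The window shown of Elovl2 held 5 GC boxes, that of Elovl4 held 2, that of Fads2 held 1 and that of Elovl6 held 0. Elovl2 has a further start in RefSeq, whose window held 0; 35.7% of all 32851 windows held at least 1. The sterol regulatory element TCACNCCAC, the letters known from SREBP binding, was searched on both strands and matched 0 of the 9 windows; 1.24% of all windows hold it. The NF-Y box CCAAT, present in 37.4% of all windows, matched in Elovl1, Elovl4 and Elovl5. The E-box CACGTG, present in 7.15%, matched in Elovl4 and Elovl5. In Elovl4 both of these lay after the start, outside the bases shown; in Elovl1 a GC box shares bases with the NF-Y box. These matches describe letters in a short window, not binding.

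Elovl6 is the elongase of saturated and monounsaturated chains that takes palmitate to stearate. It read 9.63, 9.93 and 9.42 in GFP positive cells and 10.04, 10.64 and 10.63 in GFP negative cells. All GFP positive arrays lay below all GFP negative arrays, by at least 0.11, the nearest being GFP positive replicate 2 and GFP negative replicate 1. The difference was −0.78 (SE 0.24, 95% interval −1.34 to −0.22) and did not pass (exact 2-sided permutation p = 0.1; limma adjusted p = 0.133). The middle one of its 3 probe sets in brightness separated the groups further: it read 6.65, 7.23 and 6.61 against 7.92, 8.04 and 7.90. There the difference was −1.12, or 2.18-fold lower (95% interval −1.65 to −0.60), and in the fit of all probe sets it just missed the threshold (limma adjusted p = 0.0530). Over 17 alternatives, that fit included, the limma adjusted p of Elovl6 ran from 0.0530 to 0.450. The third probe set lay near background (4.26 ± 0.51 against 3.91 ± 0.69) with overlapping groups and a difference of 0.36.

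Elovl2, Elovl5 and Elovl4 act on polyunsaturated chains. Elovl2 is known for the late elongations on the way to docosahexaenoate, and its RNA had the largest moderated t-statistic of the 10 genes. It read 6.33, 6.70 and 6.61 in GFP positive cells and 7.21, 7.40 and 7.16 in GFP negative cells. The gap of 0.46 between the groups was the widest among the 10 genes. The difference of −0.71 (SE 0.18, 95% interval −1.13 to −0.28) ranked 717 of 10531 by p and did not pass (exact 2-sided permutation p = 0.1; limma adjusted p = 0.0832). It passed without GFP negative replicate 3 (−0.75, limma adjusted p = 0.0422) and with the array weights dominated by GFP positive replicate 2 (−0.65, limma adjusted p = 0.0319). These fits called 11.8% and 15.7% of all genes, against 4.46% with all arrays and no weights. Over 17 alternatives the limma adjusted p of Elovl2 ran up to 0.326. Elovl2 has 1 probe set, so the array holds no second reading of it.

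Elovl5, which serves the earlier polyunsaturated elongations, was bright and nearly level: it read 13.58, 13.50 and 13.54 in GFP positive cells and 13.52, 13.38 and 13.25 in GFP negative cells. The groups overlapped by 0.02 only, and the difference of 0.16 (95% interval −0.23 to 0.55) did not pass (limma adjusted p = 0.694). Its other probe set differed by 0.08. Set against Elovl5 within each array, Elovl2 lay lower on GFP positive arrays: the difference of the pair was −6.996 ± 0.23 and −6.13 ± 0.17 (SD, n = 3 each), a shift of −0.87 (95% interval −1.32 to −0.41), with all GFP positive arrays below all GFP negative arrays. The exact 2-sided permutation p was 0.1, the smallest that 3 against 3 allows, and 0.3 when adjusted over 3 pairs. Only the shift is interpretable, since levels of different probe sets cannot be compared.

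Elovl4, the elongase of very long polyunsaturated and saturated chains, read 7.63, 7.30 and 6.94 in GFP positive cells and 7.73, 7.94 and 8.04 in GFP negative cells. The groups were parted by 0.11. The difference of −0.61 (SE 0.22, 95% interval −1.13 to −0.09) did not pass (exact 2-sided permutation p = 0.1; limma adjusted p = 0.197). A further probe set also separated the groups, at 6.97 ± 0.07 against 7.51 ± 0.21 (SD, n = 3 each), a difference of −0.54.

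Elovl1 and Elovl7 elongate saturated chains, Elovl1 those of sphingolipids. Elovl1 read 9.56, 9.79 and 9.57 in GFP positive cells and 9.17, 9.40 and 10.03 in GFP negative cells. The highest and the lowest of these arrays were both GFP negative, and the difference of 0.11 (95% interval −0.48 to 0.70) did not pass (limma adjusted p = 0.880). All 4 of its probe sets had a positive difference (0.09 to 0.52) with overlapping groups. The probe set read here and all others but that of 0.24 carry the suffix for possible cross-hybridisation. The difference of 0.11 moved to 0.36 without GFP negative replicate 3 and to −0.07 without GFP negative replicate 1. Elovl7 read 6.91, 7.15 and 7.01 in GFP positive cells and 7.17, 7.90 and 6.97 in GFP negative cells. GFP negative replicate 2 stood above the others, and without it the difference of −0.33 shrank to −0.05 (limma adjusted p = 0.603 with all arrays and 0.923 without that array). With a covariate for 3′ excess it was −0.02. The 6 probe sets of Elovl7 did not run one way, as 3 had a negative and 3 a positive difference, and 3 lay under the filter. A dim probe set above the filter was higher on all GFP positive arrays (5.13 ± 0.10 against 4.71 ± 0.26, SD, difference 0.42), opposite to the brightest.

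**Figure D2:**
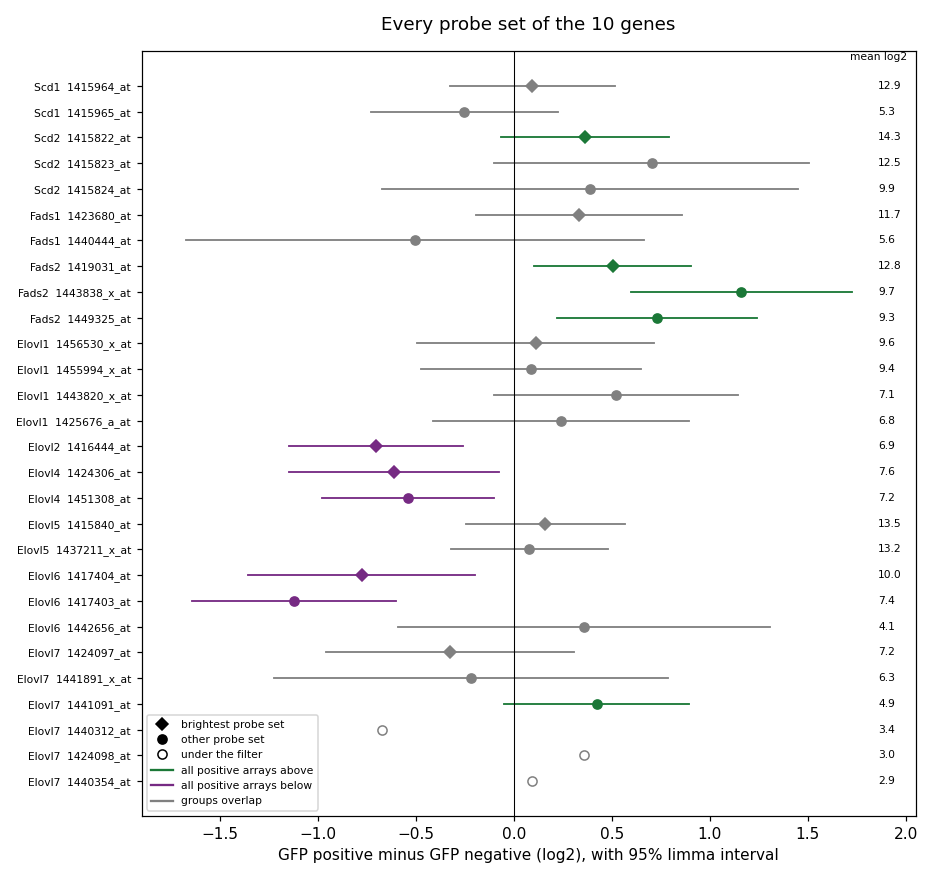
Difference between GFP positive and GFP negative cells (log2) for each of the 28 probe sets of the 10 genes, with 95% limma intervals from the fit of all bright probe sets and the mean log2 value of each at the right; open points lay under the filter and have no interval. All 3 probe sets of Fads2 lie to the right and both of Elovl4 and the brighter 2 of Elovl6 to the left without overlap of the groups, while those of Scd1, Fads1 and Elovl7 lie on both sides of 0.

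The direction of Scd2, Fads2, Elovl2, Elovl4, Elovl5 and Elovl6 was the same in all 17 alternatives, which include each array left out, other normalizations and other choices of probe set. The choice among all probe sets read each gene from its probe set of smallest p, and the near-background probe set of Elovl6 with a difference of 0.36 counted only towards the mean of probe sets. The other filters, dropping suffixed probe sets, the other variance model and the replicate block left the differences of Scd2, Fads2, Elovl2, Elovl4, Elovl5 and Elovl6 unchanged. Those alternatives therefore could not test direction. For the 5 of these genes whose groups do not overlap, the sign also could not change when an array was left out or the arrays were weighted. Scd1, Fads1, Elovl1 and Elovl7 changed sign in at least 1 alternative.

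**Figure D3:**
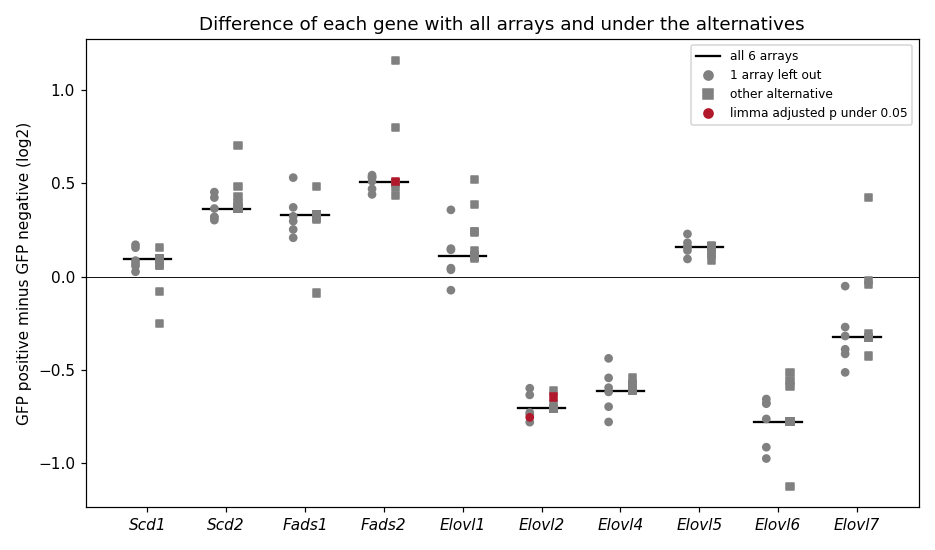
Difference between GFP positive and GFP negative cells (log2) of each gene with all 6 arrays (line), with 1 array left out (circles) and under the other alternatives (squares); red marks a limma adjusted p under 0.05. Red points occur only at Elovl2 and Fads2, and the points of Scd1, Fads1, Elovl1 and Elovl7 lie on both sides of 0.

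The remaining enzymes of the elongation cycle reduce and dehydrate the chain after each condensation. Of 5 tested genes of this cycle none passed, with a median difference of 0.04. At an unadjusted limma p under 0.05, 1 was higher and 1 lower, where 9.92% of all genes were higher and 8.28% lower. The brightest were Hacd3, a dehydratase (0.28, limma adjusted p = 0.482), and Hsd17b12, the ketoacyl reductase (−0.15, limma adjusted p = 0.725). Of 5 tested genes for the cytochrome b5 electron chain none passed either (median 0.32; 1 higher and 1 lower at an unadjusted limma p under 0.05). Cyb5a, the microsomal cytochrome b5, read 10.10 ± 0.12 against 9.42 ± 0.41 (SD, n = 3 each; difference 0.67, limma adjusted p = 0.189), and Cyb5b differed by 0.32 (limma adjusted p = 0.379).

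Of 8 tested genes that supply the substrate none passed with all arrays. Among them 4 differences were positive and 4 negative, with a median of 0.03. At an unadjusted limma p under 0.05, 1 gene was higher, Thrsp itself (0.65, limma adjusted p = 0.0893), where 9.92% of all genes were. Acly, which makes cytosolic acetyl-CoA, differed by −0.09 (limma adjusted p = 0.911). Of 7 acyl-CoA synthetases tested, which activate fatty acids for elongation and esterification, 1 rose: Acsl6, a form known for activating polyunsaturated fatty acids in the brain. It read 9.54 ± 0.03 in GFP positive and 7.60 ± 0.32 in GFP negative cells (SD, n = 3 each), a difference of 1.94 or 3.85-fold (SE 0.21, limma adjusted p = 0.00919). That call was lost without GFP positive replicate 1 or 3 (limma adjusted p = 0.0637 and 0.0621), in fits that called only 0.019% and 0.0095% of all genes. It was 1 of 7 synthetases, with a list median of 0.28.

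SREBP-1, encoded by Srebf1, and liver X receptors are known to drive transcription of desaturase and elongase genes, and SREBP-2 drives the sterol branch. None of 12 tested regulators passed (median −0.04; 0 higher and 0 lower at an unadjusted limma p under 0.05). The brightest were Insig1, which retains SREBP in the endoplasmic reticulum (−0.27, limma adjusted p = 0.458), and Scap, the escort of SREBP (−0.06, limma adjusted p = 0.944). Nr1h3, Pparg and Mlxipl lay near background. Of 12 cholesterol synthesis genes 2 fell, Fdft1 or squalene synthase (−1.08, 2.11-fold lower, limma adjusted p = 0.0376) and Idi1 (−0.79, 1.73-fold lower, limma adjusted p = 0.0408). All 12 differences were negative with a median of −0.75. At an unadjusted limma p under 0.05, 8 of the 12 were lower, against 8.28% of all genes. Without overlap 9 were lower, against 11.5% of all genes. The 10 elongases and desaturases had a median of 0.10, with 6 differences positive and 4 negative. The calls of Fdft1 and Idi1 were both lost when any GFP positive array or GFP negative replicate 2 was left out (limma adjusted p up to 0.209). Those fits called 0.0095% to 1.01% of all genes, against 4.46% with all arrays. The call of Idi1 was also lost without GFP negative replicate 1. Without GFP negative replicate 3, 4 genes of the list passed, in a fit that called 11.8% of all genes.

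Among the users of the products, 0 of 3 tested ceramide synthases passed (median −0.09). The brightest were Cers5 (−0.09, limma adjusted p = 0.833) and Cers6 (0.22, limma adjusted p = 0.664). At an unadjusted limma p under 0.05, 1 was lower, Cers2 (−0.61, limma adjusted p = 0.102, groups not overlapping), where 8.28% of all genes were lower. Peroxisomes carry out the chain shortening on the way to docosahexaenoate. Of 6 tested genes for that step none passed, 5 differences were positive and the median was 0.57. At an unadjusted limma p under 0.05, 3 were higher, where 9.92% of all genes were. Scp2, a thiolase and lipid transfer protein, differed by 0.80 (11.59 ± 0.28 against 10.79 ± 0.10, SD, n = 3; limma adjusted p = 0.0766), and Abcd3, a peroxisomal transporter, by 0.35 (limma adjusted p = 0.382). Of 7 tested genes that carry polyunsaturated fatty acids or place them in membranes none passed (median 0.09, with 1 higher at an unadjusted limma p under 0.05). The fatty acid binding proteins Fabp7 and Fabp5 differed by −0.01 and 0.07 (limma adjusted p = 0.983 and 0.905). Without GFP negative replicate 3 the calls were 3 acyl-CoA synthetases, 2 peroxisomal genes, 1 family relative and 1 gene each of substrate supply, the regulators and polyunsaturated fatty acid handling; in that fit 11.8% of all genes were called, against 4.46% with all arrays.

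**Figure D4:**
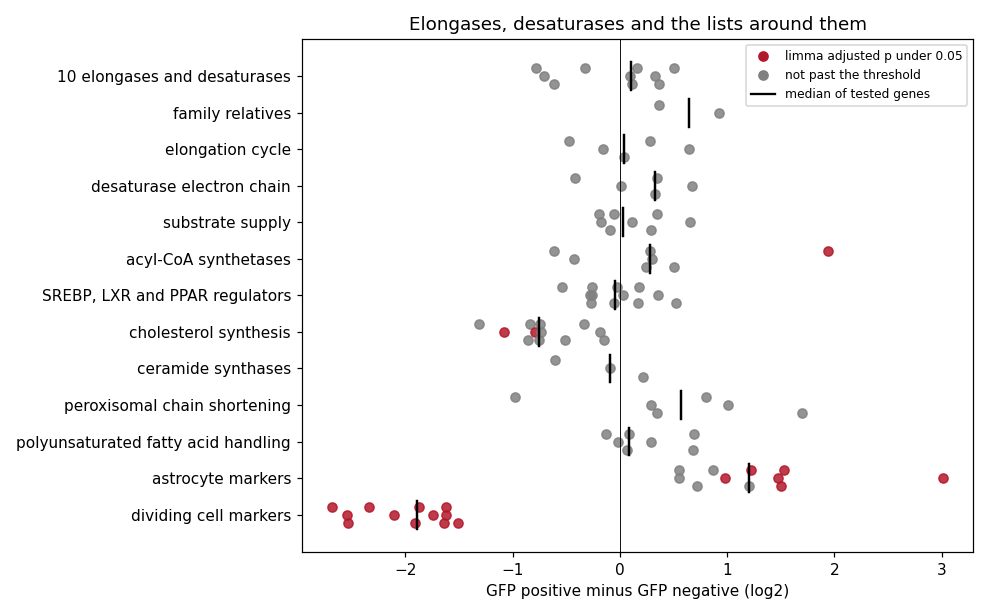
Difference between GFP positive and GFP negative cells (log2) of each tested gene of the elongases and desaturases, of the pathway lists around them and of 2 marker lists; black bars are medians and red points passed the limma threshold. Red points occur at Acsl6, at 2 cholesterol synthesis genes, and among the astrocyte markers to the right and the dividing cell markers to the left.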

How the data were processed

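RNA of 6 arrays (3 per group) was measured on Affymetrix mouse arrays. The authors' deposited values are log2 signals; GCRMA is named in the submitters' processing notes, with its version not given in the sources used here. This method corrects background by probe sequence and equalises the arrays' distributions, so folds of dim probe sets depend on the background estimate and a shift of all genes would not show. Of 45101 probe sets, 34945 named exactly 1 gene. A gene was tested where at least 3 arrays reached log2 4. Both groups entered a linear model in limma 3.58.1 (R 4.3.3; lmFit, eBayes), with Benjamini-Hochberg adjustment over 10531 genes and a threshold of 0.05, after the test was tried on simulated data. Nothing says that replicates came from separate animals or cultures beyond the word biological, so p-values measure the spread between these samples.

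The 10 genes, 10 pathway lists and 10 marker lists were chosen with earlier results of these data known. Named were the 10 genes, Thrsp, the family relatives, of each list at most 2 called genes per direction, by size of difference, or its 2 brightest tested genes where none was called, and the 3 genes most like the member with the largest moderated t. Other names complete a count or show that a marker or regulator is present or near background. No batch is labelled. Alternatives covered the filter, the normalization, the choice of probe set, the variance model, a replicate block, a covariate for 3′ excess, a 2-fold minimum and leaving out each array. Promoter sequences came from RefSeq, assembly GRCm38.p6.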

Additional observations from a re-analysis of the deposited data

How the results depend on the processing

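Of the 10 genes, 0 passed with all arrays and in every alternative but these: 2 passed with array weights (Fads2 and Elovl2) and 0 to 1 when each array was left out in turn (Elovl2 without GFP negative replicate 3). The number of genes without overlap was 5, and 5 to 8 when each array was left out in turn; the count was 4 with the mean of probe sets, where Scd2 overlapped. The 8 came without GFP negative replicate 3, where 47.7% of all genes did not overlap. Without each of the other arrays the count was 5 or 6, and 28.9% to 37.1% of all genes did not overlap. With all arrays that share was 25.3%. These fits of overlap were added after seeing the data. Among all genes 470 were called, 294 with no filter, 1654 with array weights, 27 with the replicate block, 9 with the 3′ to 5′ covariate, and 1 to 1244 when each array was left out in turn. Scd1 changed sign with the mean of probe sets (−0.0794) and with all probe sets (−0.25), Fads1 with the mean of probe sets (−0.0877), Elovl1 without GFP negative replicate 1 (−0.0727; 0.358 without GFP negative replicate 3) and Elovl7 with all probe sets, where a dim probe set was read (0.42); the cause was not tested. The shifts within the 3 pairs kept their direction in all alternatives run on them. Dropping suffixed probe sets and the replicate block left the shifts unchanged, so these could not test direction. That of Elovl2 and Elovl5, whose groups do not overlap, could not change sign when an array was left out.

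The replicate numbers did not pair the arrays: deviations of arrays with the same number correlated at −0.25, 0.05 and −0.50 across genes, and with the replicate block 0 of the 10 genes passed. In that block the pairs had exact sign-flip p of 0.5 (Scd1 and Scd2, −0.27), 0.75 (Fads1 and Fads2, −0.17) and 0.25 (Elovl2 and Elovl5, −0.87), the last being the smallest it allows. Precision is limited by the 3 arrays of each group: the lowest bound of the 10 genes' 95% limma intervals was −1.34 (Elovl6) and the highest 0.89 (Fads2), in log2.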

Other observations

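Across the 6 arrays, 3 tested genes ran most like Elovl2: Mcm2, a subunit of the replicative helicase that is also 1 of the 12 dividing cell markers (r = 0.997), Ccbe1, a secreted collagen and calcium binding protein (r = 0.996), and Frrs1, a ferric reductase of the cytochrome b561 family (r = 0.996). Mcm2 read 5.84 ± 0.50 in GFP positive and 7.45 ± 0.27 in GFP negative cells, Ccbe1 6.31 ± 0.40 and 8.08 ± 0.23, and Frrs1 7.26 ± 0.23 and 8.09 ± 0.15 (SD, n = 3 each). The likeness describes 6 points in 2 groups, and 101 genes other than the elongases and desaturases reached an r of 0.95 or more.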
